A study of Mus musculus with 8 samples.

Results

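Integrins and laminins are the receptors and ligands that hold an epithelial cell on its basement membrane. An integrin is a pair of one alpha and one beta chain that spans the cell membrane, binds matrix outside and is linked to the actin or keratin skeleton inside. A laminin is a cross-shaped trimer of one alpha, one beta and one gamma chain, and laminins form the sheet to which type IV collagen, nidogens and perlecan attach. In the lung, basal cells of the airway sit on hemidesmosomes built on the integrin α6β4, whereas the alveolar epithelium shares a thin basement membrane with the capillaries.

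All 37 integrin and laminin genes in a table of 23284 genes were described, chosen by their symbols alone: 18 integrin alpha genes, 8 integrin beta genes and 11 laminin genes. Genes with similar symbols that encode other proteins, such as Itgb1bp1, Itgb3bp, Itgbl1 and the beta2-like gene Itgb2l, were left out. The values are RNA read counts of sorted cells from 4 mouse alveolar organoid lines (SN2285, SN2286, SN2293 and SN2294). The lung cells carried an Sftpc-eGFP transgene, a green fluorescent reporter under the surfactant protein C gene, and both sorts of every line carried it. Cells were sorted by flow cytometry, giving 4 libraries of cells sorted for eGFP (GFP-positive) and 4 of cells sorted for its absence (GFP-negative), 1 of each per line. Organoids grew in FNHCAS medium in drops of 90% matrigel, a basement membrane extract rich in laminin protein, and no further treatment is named. The sources used here give neither strain, age nor sex of the mice, nor whether the lines came from different mice, so p-values measure the spread between these lines. The stated aim was to compare gene expression between the GFP-positive and the GFP-negative cells.

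Total counts were 11202576 to 16032633 in the GFP-positive sort and 5910344 to 15583384 in the GFP-negative sort, the lowest being the GFP-negative library of line SN2294. Sftpc, the gene behind the sort, averaged 17652 ± 2121 CPM in the GFP-positive sort, against 871 ± 416 CPM in the GFP-negative sort (SD, n = 4 each), where CPM is a count scaled to a common library size after correction for library composition. The 7 markers of alveolar type 2 (AT2) cells listed summed to 35660 to 40640 CPM in the GFP-positive sort, against 3508 to 5104 CPM in the GFP-negative sort. The 6 basal cell markers summed to 23.5 to 72.9 CPM in the GFP-positive sort, against 2027 to 2574 CPM in the GFP-negative sort. The 12 fibroblast and smooth muscle markers summed to 12.3 to 21.8 CPM in GFP-positive libraries, with Tcf21 at 0, and to 408 to 741 CPM in GFP-negative ones. The 15 leukocyte markers summed to 7.05 to 11.25 CPM in the GFP-positive sort, against 4.63 to 68.04 CPM in the GFP-negative sort, the highest again in line SN2294. In such bulk samples, fewer cells of a type and less RNA per cell cannot be told apart.

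The 37 genes together took 0.556 to 0.613% of all counts in the GFP-positive sort, against 0.558 to 0.639% in the GFP-negative sort, so the ranges overlapped while the make-up of the family differed. Among the genes that GFP-positive cells carried more of were the integrin alpha genes Itga9, Itga7, Itga1 and Itga2 and the laminin genes Lamb2 and Lamc1. They carried less of the integrin genes Itgb4, Itgb5, Itgb3, Itgb2, Itgb8, Itga5 and Itga8 and of the laminin genes Lama4, Lama2, Lama1, Lamb1 and Lamb3. The abundant receptor genes Itgb1, Itga3 and Itga6, and the most abundant laminin alpha gene, Lama5, had no call. Of the 37 genes, 28 had enough counts to be tested, and 19 of these passed a false discovery rate of 0.05 in edgeR's quasi-likelihood test, 7 higher and 12 lower. Over all 12848 genes tested 40.7% passed, 18.9% higher and 21.8% lower. Under library-size scaling without composition factors, 1505 of all genes were higher and 4199 lower in place of 2430 and 2801. The median log2 fold change (GFP-positive minus GFP-negative) was −0.16 over the 28 genes and −0.01 over all genes tested. Calls of 2-fold or more were made for 4 genes higher and 10 lower, against 4.41% and 11.1% of all genes. The 2 sorts did not overlap for 19 of the 28 genes, against 39.5% of all genes tested. Of the 12 lower genes, 8 (Itga5, Itga8, Itgb2, Itgb3, Itgb8, Lama1, Lama2 and Lama4) reached the minimum count in all 4 GFP-negative libraries but in 3 or fewer GFP-positive ones. These 8 passed the filter only through the sort where they were high, so the counts over the genes tested describe them and support nothing, and their fold changes rest on few GFP-positive reads.

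**Figure D1:**
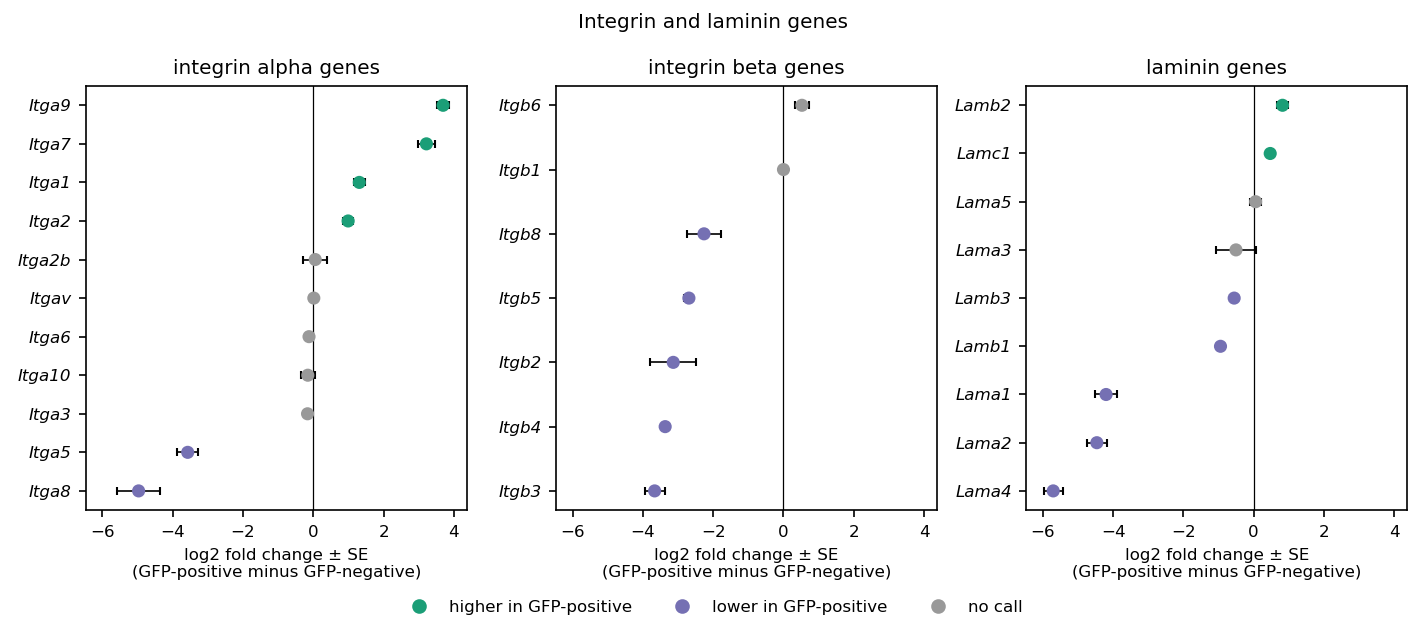
Log2 fold change (GFP-positive minus GFP-negative, x axis, ± SE) of the integrin and laminin genes described, in 3 panels by class, 4 libraries per group. Green points passed as higher in GFP-positive cells, violet as lower and grey had no call; Itga9 (3.69) and Itga7 (3.22) lie farthest to the right and Lama4 (−5.70) farthest to the left.

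Upstream sequence of 6 called genes is shown so that both directions, and both receptors and ligands, can be read side by side. Itga9 and Lamb2 were higher in GFP-positive cells, and Itga5, Itgb5, Lamb1 and Lama2 were lower. Each run is the 250 bases before the RefSeq start, 5′ to 3′ on the gene's strand, in build GRCm38.p6, whereas the counts were made on mm9. Windows were found for 23 of the 37 genes. Capitals mark matches, on either strand, to the letters of 4 motifs: TGANTCA (AP-1, the same on both strands), GGAATG (TEAD), GGGCGG (GC box) and CACTTG (a core bound by NKX2-1).
Itga9 (chr9:118711442-118711691, plus strand): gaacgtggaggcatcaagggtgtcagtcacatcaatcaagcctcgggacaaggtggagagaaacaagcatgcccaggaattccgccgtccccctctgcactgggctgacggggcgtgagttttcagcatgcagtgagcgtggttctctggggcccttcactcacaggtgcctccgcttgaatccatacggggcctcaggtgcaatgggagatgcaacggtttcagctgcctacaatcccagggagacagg
Lamb2 (chr9:108479612-108479861, plus strand): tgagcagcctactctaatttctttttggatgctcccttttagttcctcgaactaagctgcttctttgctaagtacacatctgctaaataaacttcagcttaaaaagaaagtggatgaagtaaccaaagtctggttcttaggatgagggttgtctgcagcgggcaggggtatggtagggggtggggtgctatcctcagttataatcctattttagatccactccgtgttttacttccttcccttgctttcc
Itga5 (chr15:103366792-103367041, minus strand): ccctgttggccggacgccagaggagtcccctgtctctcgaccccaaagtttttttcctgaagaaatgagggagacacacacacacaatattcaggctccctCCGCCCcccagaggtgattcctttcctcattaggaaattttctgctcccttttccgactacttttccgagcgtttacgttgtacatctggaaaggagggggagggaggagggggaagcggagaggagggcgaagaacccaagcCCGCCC
Itgb5 (chr16:33829415-33829664, plus strand): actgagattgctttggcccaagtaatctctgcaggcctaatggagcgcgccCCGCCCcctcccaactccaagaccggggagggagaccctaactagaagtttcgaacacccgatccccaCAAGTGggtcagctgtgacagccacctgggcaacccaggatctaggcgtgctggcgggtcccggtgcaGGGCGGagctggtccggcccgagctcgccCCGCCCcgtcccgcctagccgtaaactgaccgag
Lamb1 (chr12:31265043-31265292, plus strand): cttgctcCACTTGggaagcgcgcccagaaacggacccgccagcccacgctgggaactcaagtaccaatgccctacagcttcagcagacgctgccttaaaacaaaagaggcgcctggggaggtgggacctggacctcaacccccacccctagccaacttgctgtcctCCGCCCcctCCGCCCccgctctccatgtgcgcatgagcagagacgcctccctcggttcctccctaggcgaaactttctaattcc
Lama2 (chr10:27616943-27617192, minus strand): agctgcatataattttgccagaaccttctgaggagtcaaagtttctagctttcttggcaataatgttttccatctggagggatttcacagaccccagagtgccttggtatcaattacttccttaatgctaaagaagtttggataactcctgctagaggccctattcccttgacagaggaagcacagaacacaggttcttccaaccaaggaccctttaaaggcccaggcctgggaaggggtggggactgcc
None of the matches overlapped. The GC box letters were found in the windows of Itga5, Itgb5 and Lamb1, and the NKX2-1 core in those of Itgb5 and Lamb1, while the windows of Itga9, Lamb2 and Lama2 held no match. Over all 32851 windows in the table, 32.7% held the GC box, 12.6% the TEAD letters, 11.6% the NKX2-1 core and 6.75% the AP-1 letters. Of the 26 windows of integrin and laminin genes, 9 held the GC box, 3 the TEAD letters, 4 the NKX2-1 core and 1 the AP-1 letters. A match describes the letters only.

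In what follows, values of the 4 libraries of a sort are given in the order of lines SN2285, SN2286, SN2293 and SN2294. Among the integrin alpha genes of laminin receptors, 1 of 3 passed the test. Itga7 encodes a laminin-binding chain best known from skeletal muscle. It stood at 50.1, 43.4, 64.0 and 37.6 CPM in GFP-positive libraries, against 5.75, 2.96, 6.03 and 6.62 CPM in GFP-negative ones. Every GFP-positive library was above every GFP-negative one, and the gene was 9.31-fold higher (log2 fold change 3.22 with an SE of 0.25, adjusted p = 4.5e-06). Itga3, the alpha chain that with beta1 binds laminins with an α3 or α5 chain, was at 807, 749, 840.4 and 828 CPM in the GFP-positive sort, against 991, 933, 877 and 811 CPM in the GFP-negative sort. The GFP-negative library of line SN2294 lay within the GFP-positive range, and the difference did not pass (log2 fold change −0.16 with an SE of 0.08, adjusted p = 0.12). Itga6, whose protein pairs with beta1 or, in hemidesmosomes, with beta4, was at 284, 286, 275 and 318 CPM in the GFP-positive sort, against 317, 346, 296 and 307 CPM in the GFP-negative sort. Its groups overlapped too (log2 fold change −0.12 with an SE of 0.08, adjusted p = 0.23). Under library-size scaling without composition factors, which put the all-gene median of log2 fold changes at −0.16, Itga3 (−0.31) and Itga6 (−0.27) passed as lower.

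The alpha chains of collagen receptors had 2 of 3 tested members higher in GFP-positive cells. Itga2, known as the collagen receptor of platelets and epithelia, was at 216, 249, 194 and 236 CPM in the GFP-positive sort, against 141, 109, 112 and 86.5 CPM in the GFP-negative sort. All GFP-positive libraries were higher, by 1.99-fold (log2 fold change 0.99 with an SE of 0.13, adjusted p = 1.4e-04). Itga1, whose protein binds type IV collagen among others, was at 25.3, 31.5, 20.8 and 31.3 CPM in the GFP-positive sort, against 10.3, 13.3, 11.0 and 8.82 CPM in the GFP-negative sort. The groups again stood apart (log2 fold change 1.31 with an SE of 0.16, adjusted p = 5.1e-05). Itga10, best known from cartilage, was low and overlapped, at 5.24 to 7.48 CPM in the GFP-positive sort, against 5.21 to 8.10 CPM in the GFP-negative sort (log2 fold change −0.16, adjusted p = 0.56). Itga11, a fibroblast collagen receptor chain, had 14 counts over the GFP-positive and 16 over the GFP-negative libraries and was not tested.

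Itga9, whose protein pairs with beta1 and binds tenascin-C, VCAM1 and other ligands, had the largest positive fold change of the 28 genes. It was at 224, 233, 211 and 207 CPM in GFP-positive libraries, against 24.1, 13.2, 14.0 and 16.2 CPM in GFP-negative ones. The 4 GFP-positive values lay within a narrow span, and the GFP-positive level was 926 to 1766% of the GFP-negative one within lines (log2 fold change 3.69 with an SE of 0.18, adjusted p = 1.9e-07). Itga4, the related chain of leukocyte homing receptors, had 0, 5, 2 and 3 counts in the GFP-positive sort, against 7, 5, 3 and 41 counts in the GFP-negative sort and was not tested. The library with its 41 counts was also the one with the most leukocyte marker RNA.

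Of the 4 alpha chains that recognise the RGD sequence, 2 were lower in GFP-positive cells. Itga5, the alpha chain of the fibronectin receptor, was at 2.06, 1.24, 1.69 and 0.585 CPM in the GFP-positive sort, against 16.9, 12.5, 18.9 and 17.2 CPM in the GFP-negative sort, 11.9-fold lower (log2 fold change −3.57 with an SE of 0.29, adjusted p = 1.9e-06). Itga8, whose protein pairs with beta1, binds nephronectin and is carried by mesenchymal cells of the lung, and shares 372 of its 7368 exonic bases with a gene of the opposite strand, had 1, 0, 2 and 1 counts in the GFP-positive sort, against 24, 32, 49 and 32 counts in the GFP-negative sort. Those are 4 counts against 137, so the size of its log2 fold change (−4.97, SE 0.61, adjusted p = 4.3e-05) rests on few reads. The tested fibroblast and smooth muscle markers were lower, as Itga8 and Itga5 were. Of these markers, Col3a1, Dcn, Pdgfrb, Col6a3, Acta2, Des and Tcf21 passed the filter only through the GFP-negative sort. So did Itga8 and Itga5, and their shared direction with the markers supports nothing. Lum and Myh11 of that list were not tested, and Myh11 was not lower (mean 0.18 CPM in the GFP-positive sort, against 0.10 CPM in the GFP-negative sort). The part of fibroblast RNA in these differences was not tested. Itgav, the shared alpha chain of the αv integrins, was at 166, 182, 189.6 and 159 CPM in the GFP-positive sort, against 170.2, 158, 201 and 159 CPM in the GFP-negative sort, with no call (log2 fold change 0.015 with an SE of 0.09, adjusted p = 0.92). Itga2b, the platelet fibrinogen receptor chain, was at 1.04 to 2.31 CPM in the GFP-positive sort, against 1.14 to 2.10 CPM in the GFP-negative sort (log2 fold change 0.055, adjusted p = 0.92). Of 5 platelet markers, Gp9 and Gp6 were at 0 in every library, and the list summed to 13.8 to 30.0 CPM in the GFP-positive sort, against 1.05 to 5.67 CPM in the GFP-negative sort, most of it Pf4.

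Itgb1, the beta chain shared by most matrix integrins, was abundant in both sorts and had no call. It stood at 788, 945, 838 and 889.8 CPM in the GFP-positive sort, against 916, 815, 925 and 805 CPM in the GFP-negative sort, with means of 865 ± 67.7 CPM in the GFP-positive sort and 865 ± 63.9 CPM in the GFP-negative sort, and an SE of the log2 fold change of 0.08 (adjusted p = 0.999). Among the other beta genes, 5 passed, all lower in GFP-positive cells. Itgb4, the beta chain of hemidesmosomes, whose long tail is linked to keratin filaments, was at 41.4, 33.3, 37.3 and 39.0 CPM in the GFP-positive sort, against 439, 396, 381 and 341 CPM in the GFP-negative sort. The groups lay far apart and each was tight (log2 fold change −3.37 with an SE of 0.10, adjusted p = 1.6e-09). Within lines the GFP-positive level of Itgb4 was 8.40 to 11.5% of the GFP-negative one, while that of the basal keratin gene Krt5 was 0.929 to 3.16% and that of the basal regulator Trp63 1.41 to 3.13%. The GFP-positive library of line SN2285, with the most basal marker RNA of its group (72.9 CPM), was also the highest of its group in Itgb4. The part of basal cell RNA in this difference was not tested.

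Of the beta chains that pair with αv, 3 were lower and Itgb6 was not among them. Itgb5, a vitronectin receptor chain, was at 11.9, 11.4, 10.1 and 8.26 CPM in the GFP-positive sort, against 70.0, 65.9, 74.7 and 57.2 CPM in the GFP-negative sort, 6.46-fold lower with no overlap (log2 fold change −2.69 with an SE of 0.13, adjusted p = 3.4e-08). Itgb3, the other vitronectin receptor chain, was at 0.343, 0.381, 0.724 and 0.390 CPM in the GFP-positive sort, against 5.88, 5.39, 5.78 and 6.93 CPM in the GFP-negative sort, or 23 against 309 counts (log2 fold change −3.67 with an SE of 0.28, adjusted p = 1.2e-06). Itgb8, an activator of latent TGF-beta, was sparse, with 2, 7, 1 and 5 counts in the GFP-positive sort, against 22, 17, 33 and 8 counts in the GFP-negative sort (log2 fold change −2.26 with an SE of 0.49, adjusted p = 0.0029). Itgb6, the epithelial chain that also activates latent TGF-beta, had higher values in GFP-positive libraries but no call. It stood at 129, 112, 123 and 103 CPM in the GFP-positive sort, against 106, 51.3, 91.9 and 75.0 CPM in the GFP-negative sort, so the groups overlapped although each line was higher in its GFP-positive library, at 122 to 219% of the GFP-negative level. Its difference did not pass without pairing (log2 fold change 0.53 with an SE of 0.20, adjusted p = 0.071) and passed in the paired fit with line as a term (0.57, SE 0.13, adjusted p = 0.0059).

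**Figure D2:**
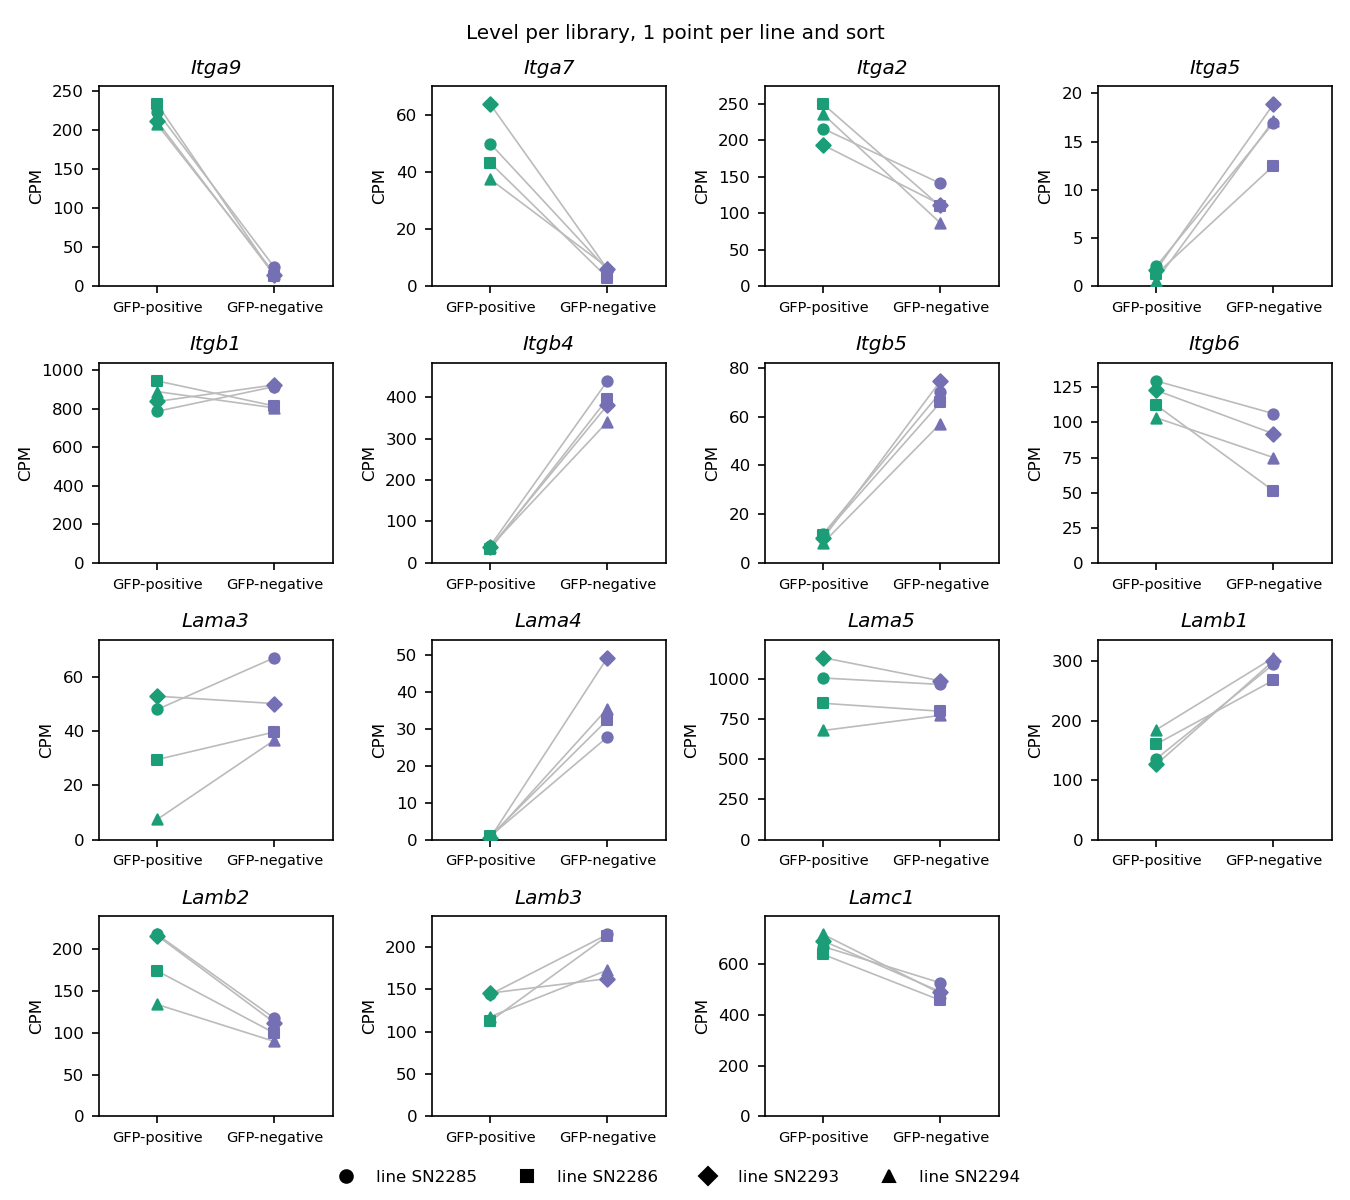
Level in CPM (y axis, from 0) of 15 integrin and laminin genes in each of the 8 libraries, GFP-positive at left and GFP-negative at right, with the 2 libraries of a line joined. The joining strokes fall steeply to the right for Itga9 and Itga7, climb for Itga5, Itgb4, Itgb5 and Lama4, cross for Itgb1, and spread widely for Lama3, whose GFP-positive value in line SN2294 (7.48 CPM) is far below the others.

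Integrin genes of leukocytes had few counts, and Itgax and Itgam were found almost only in 1 library. Itgb2, the beta chain common to leukocyte integrins, had 14, 1, 6 and 2 counts in the GFP-positive sort, against 61, 41, 40 and 53 counts in the GFP-negative sort (log2 fold change −3.14 with an SE of 0.65, adjusted p = 0.0030). Its log2 fold change was −4.09 when the GFP-positive SN2285 library was dropped (adjusted p = 7.1e-04) and −2.69 when the GFP-negative SN2294 library was (adjusted p = 0.0038). Its alpha partners had at most 4 counts in any GFP-negative library of the other three lines. Itgax, of dendritic cells and macrophages, had 53 counts in the GFP-negative library of line SN2294 and 0 in the other 7. Itgam, of myeloid cells, had 30 counts in that library and 2 over the 4 GFP-positive ones. Itgal, of lymphocytes, had 3, 3, 5 and 2 counts in the GFP-positive sort, against 0, 2, 4 and 12 counts in the GFP-negative sort. The 15 leukocyte markers did not move as one. Laptm5 (10.2 CPM), Csf1r (10.9 CPM) and Ptprc (4.10 CPM) were present in the GFP-negative SN2294 library and at 0.191 CPM or less in every other one. Of the 3 markers with enough counts to test, Hcls1 was higher in GFP-positive cells (log2 fold change 2.48, adjusted p = 4.2e-04), Lcp2 was lower (−3.62, adjusted p = 2.1e-04) in every line, and the third had no call. Lcp2 had 1, 5, 1 and 4 counts in the GFP-positive sort, against 38, 33, 31 and 34 counts in the GFP-negative sort. It passed the filter only through the GFP-negative sort, so its call describes it and supports nothing. Hcls1 had 67, 56, 65 and 138 counts in the GFP-positive sort, against 13, 13, 11 and 18 counts in the GFP-negative sort. Cd3e was at 0 in all libraries and Laptm5, Tyrobp, C1qa and C1qb in all GFP-positive ones. Itgae and Itgb7, the 2 chains of the E-cadherin receptor of intraepithelial lymphocytes, had 34 and 20 counts in the GFP-positive sort, against 32 and 40 counts in the GFP-negative sort. Itgad had no count in any library.

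Of the 5 laminin alpha genes, the abundant Lama5 and the more variable Lama3 had no call, and 3 rare ones were lower in GFP-positive cells. Lama5, the alpha chain of the main laminin of mature epithelial basement membranes, stood at 1004, 847, 1130.0 and 678 CPM in the GFP-positive sort, against 964, 798, 986 and 772 CPM in the GFP-negative sort. The groups overlapped, and the spread within each sort (SD 196 CPM in the GFP-positive sort and 111 CPM in the GFP-negative sort) exceeded the difference between their means (log2 fold change 0.056 with an SE of 0.15, adjusted p = 0.80). Lama4, of vessel and mesenchymal basement membranes, was at 0.943, 0.953, 0.483 and 0.455 CPM in the GFP-positive sort, against 27.7, 32.4, 49.2 and 35.4 CPM in the GFP-negative sort. At 34 counts against 1941, it was 52.1-fold lower (log2 fold change −5.70 with an SE of 0.27, adjusted p = 4.1e-08). Lama2, the alpha chain of muscle laminin, had 6, 16, 8 and 12 counts in the GFP-positive sort, against 234, 235, 370.0 and 141 counts in the GFP-negative sort (log2 fold change −4.46 with an SE of 0.28, adjusted p = 2.4e-07). Lama1, a chain of early embryonic basement membranes, had 18 counts over the GFP-positive and 348 over the GFP-negative libraries (log2 fold change −4.20 with an SE of 0.31, adjusted p = 9.2e-07). The 3 rare alpha chains fell alongside 10 of 10 tested fibroblast and smooth muscle markers, whose median log2 fold change was −4.88. Among these markers, Col3a1, Dcn, Pdgfrb, Col6a3, Acta2, Des and Tcf21 passed the filter only through the GFP-negative sort, so this count supports nothing. Lum and Myh11 of the list were not tested. Myh11 had 3, 0, 1 and 6 counts in the GFP-positive sort, against 2, 0, 2 and 1 counts in the GFP-negative sort. The endothelial markers were low in both sorts, at 3.53 to 5.23 CPM in the GFP-positive sort, against 3.88 to 7.56 CPM in the GFP-negative sort, with Emcn at 0 throughout. The part of other cell types in the laminin differences was not tested.

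Lama3, the alpha chain of the laminin that anchors hemidesmosomes, varied widely between lines. It was at 48.0, 29.5, 52.9 and 7.48 CPM in the GFP-positive sort, against 67.1, 39.7, 50.2 and 36.7 CPM in the GFP-negative sort. The GFP-positive library of line SN2294 held 20.4% of the level of its GFP-negative partner, against 71.6, 74.4 and 105% in the other lines, and there was no call (log2 fold change −0.50 with an SE of 0.56, adjusted p = 0.53). The same GFP-positive library was the lowest of its group in Lama5 and Lamb2, and also in 5 of the 7 alveolar type 1 cell markers, among them Hopx, at 88.3, 44.6, 86.2 and 18.4 CPM, and Ager, at 156, 86.5, 234 and 70.8 CPM. The other two were lowest elsewhere, Aqp5 in line SN2286 and Pdpn in line SN2285, and the 7 markers summed to 3219, 2388, 3166 and 2424 CPM in GFP-positive libraries. The order of the lines in GFP-positive cells, SN2293 highest, then SN2285, SN2286 and SN2294, was the same for Lama3, Ager and the basement membrane collagen genes Col4a3 (3.97 to 20.04 CPM) and Col4a4 (9.56 to 36.5 CPM), while Hopx had the upper pair in the other order. Lama5 and the perlecan gene Hspg2 (54.6, 35.2, 63.2 and 24.8 CPM), neither listed as a type 1 marker, had the order of Lama3 too. The order was thus not particular to the genes named before. The part of alveolar type 1 cell RNA in the spread of Lama3 was not tested.

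The laminin beta genes moved in opposite directions. Lamb2, the beta chain typical of neuromuscular, kidney and vascular basement membranes, was at 217, 174, 216 and 134 CPM in the GFP-positive sort, against 117, 99.5, 112 and 89.5 CPM in the GFP-negative sort, 1.77-fold higher without overlap (log2 fold change 0.82 with an SE of 0.15, adjusted p = 0.0017). Lamb1, the widespread beta chain, was at 136, 161, 127 and 185 CPM in the GFP-positive sort, against 295, 268, 301 and 306 CPM in the GFP-negative sort, 1.92-fold lower without overlap (log2 fold change −0.94 with an SE of 0.11, adjusted p = 3.2e-05). Lamb3, which assembles with the Lama3 product in the laminin of hemidesmosomes, was at 144, 113, 146 and 118 CPM in the GFP-positive sort, against 215, 213, 163 and 173 CPM in the GFP-negative sort (log2 fold change −0.55 with an SE of 0.12, adjusted p = 0.0027). Lamc1, the gamma chain of most laminins, was at 670.1, 639, 692 and 718 CPM in the GFP-positive sort, against 527, 458, 492 and 486 CPM in the GFP-negative sort, a rise that was seen in every line (log2 fold change 0.47 with an SE of 0.07, adjusted p = 2.1e-04). Lamc3 had 1 count in all GFP-positive and 3 in all GFP-negative libraries.

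Levels of different chains were compared per kilobase of exon, with lengths from the GENCODE annotation of another build, as the share each gene takes of its class in a library. Itgb1 made up 87.3 to 90.6% of integrin beta RNA in the GFP-positive sort and 69.2 to 71.5% in the GFP-negative sort. Itgb4 made up 1.85 to 2.67% in the GFP-positive sort, against 17.1 to 19.9% in the GFP-negative sort, so the share ranges of Itgb1 did not overlap although its level had no call. Among alpha chains, Itga3 led in both sorts, with 51.6 to 56.3% in the GFP-positive sort, against 65.7 to 68.4% in the GFP-negative sort. Itga9 held 10.3 to 11.9% of alpha chain RNA in GFP-positive libraries, close to the 11.7 to 13.4% of Itga6 and the 10.4 to 13.8% of Itga2 there, whose ranges overlap, and 0.717 to 1.24% in the GFP-negative sort. The closeness to Itga6 rests on the length used. By coding length Itga9 held 11.9 to 13.7% in GFP-positive libraries, below the 15.1 to 17.3% of Itga6. These shares are a description of the levels above and have no test of their own.

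Lama5 made up 95.0 to 98.6% of laminin alpha RNA per kilobase in the GFP-positive sort and 88.8 to 89.8% in the GFP-negative sort. Lama4, Lama2 and Lama1 each reached at most 0.121% in GFP-positive libraries, against 2.43 to 4.18% for Lama4 in GFP-negative ones. By coding length Lama4 held up to 0.221% in the GFP-positive sort, against 5.07 to 8.54% in the GFP-negative sort. Among beta chains the order differed between the sorts, with Lamb2 first in GFP-positive libraries (37.6 to 50.5%) and last in GFP-negative ones (20.5 to 25.1%). The order of Lamb2 and Lamb3 in GFP-positive libraries rests on the length used, since with coding length Lamb2 averaged 34.4% and Lamb3 37.4%, a measure chosen after the data were seen. Lamb2 was last in GFP-negative libraries by either length. By coding length the order in GFP-positive libraries varied by line. Lamb2 was first in SN2286 (34.41%, against 34.34% for Lamb3) but last in SN2294 (26.91%, against 36.54% for Lamb1 and 36.55% for Lamb3).

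**Figure D3:**
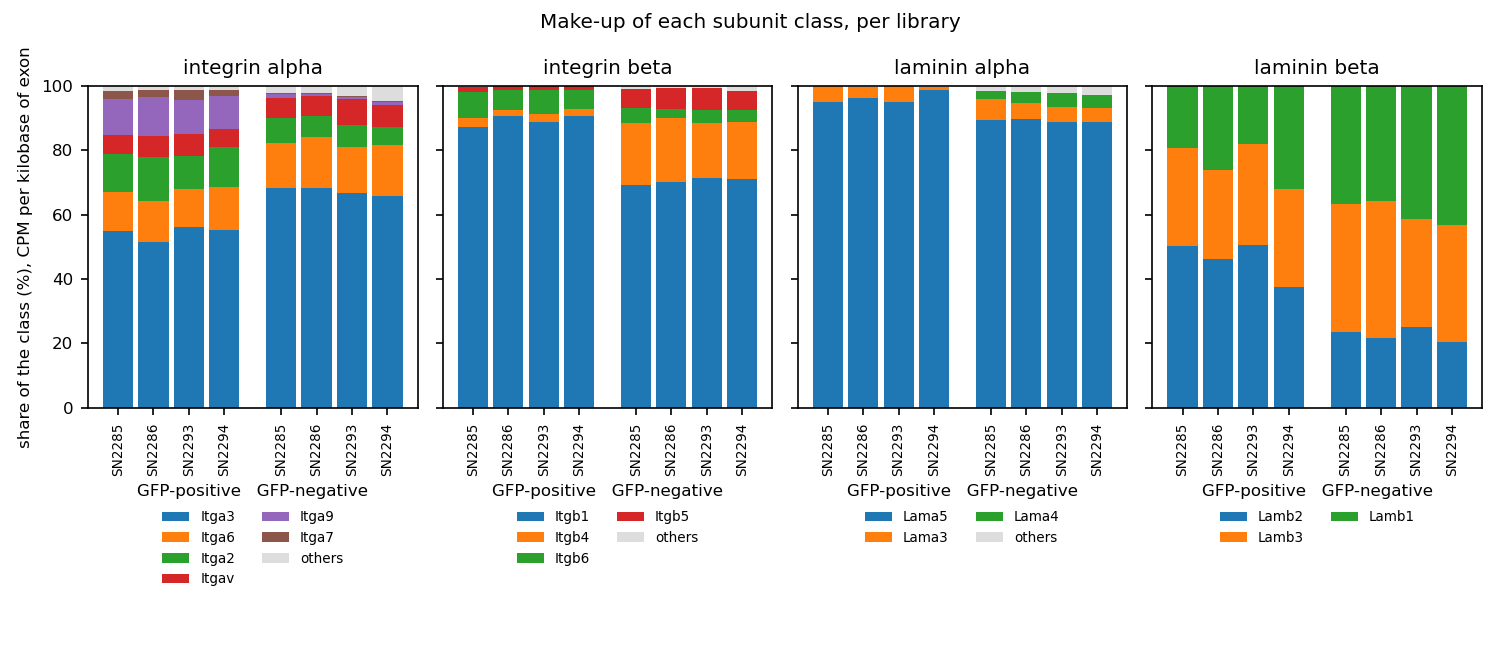
Share (%, y axis) of each subunit gene in the summed CPM per kilobase of exon of its class, 1 bar per library, GFP-positive lines at left and GFP-negative lines at right in each of 4 panels. Itgb1 and Lama5 fill most of their classes in all 8 libraries, Itga9 forms a wide band in GFP-positive bars and a thin one in GFP-negative bars (10.3 to 11.9% against 0.717 to 1.24%), Itgb4 a thin band in GFP-positive bars and a wide one in GFP-negative bars (1.85 to 2.67% against 17.1 to 19.9%), and Lamb2 takes a larger part of beta chains in GFP-positive bars.

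The 5 lists of adhesion genes that work with integrins and laminins held 65 genes tested. Of these 44 passed, 15 higher and 29 lower in GFP-positive cells, beside the 40.7% of all genes. Some of the lower ones, among them Col17a1, Krt14, Nid2, Tgfbi, Nov and Jam3, passed the filter only through the GFP-negative sort. The counts of calls in these lists therefore describe them and support nothing. A number that follows a gene name in parentheses is its log2 fold change. The hemidesmosome partners had 5 of 6 members lower and none higher (median log2 fold change −3.30). Col17a1, the transmembrane collagen of hemidesmosomes, was at 1.78 ± 1.36 CPM in the GFP-positive sort, against 87.6 ± 19.2 CPM in the GFP-negative sort (log2 fold change −5.66 with an SE of 0.40, adjusted p = 1.5e-05). The plakin genes Plec (−1.07) and Dst (−0.77), whose products tie α6β4 to keratins, fell by less, and the tetraspanin gene Cd151 had no call (0.13, adjusted p = 0.20). Krt5 and Krt14 of this list are also basal markers. The focal adhesion adaptors, which join integrin tails to actin, had 6 of 19 tested members higher and 4 lower (median log2 fold change 0.045). The kindlin genes split, with Fermt1, the kindlin of epithelia, at 19.5 ± 2.12 CPM in the GFP-positive sort, against 63.7 ± 7.35 CPM in the GFP-negative sort (log2 fold change −1.71 with an SE of 0.11, adjusted p = 3.4e-07), and the widely expressed Fermt2 at 102 ± 9.43 CPM in the GFP-positive sort, against 72.7 ± 6.53 CPM in the GFP-negative sort (log2 fold change 0.48 with an SE of 0.09, adjusted p = 8.8e-04). Tns1 rose most among the adaptors (1.64, SE 0.27, adjusted p = 7.9e-04). The talin gene Tln1 (0.57) and the actinin gene Actn4 (0.47) rose, while the vinculin gene Vcl (0.032) and the paxillin gene Pxn (−0.12) had no call. Actn1 was called higher (0.27, adjusted p = 0.037), but lost this call under 5 of the 13 alternatives. Beside Fermt1, the lower adaptors were Lims1 (−0.36), Tns3 (−0.36) and Tgfb1i1 (−1.20). In the paired fit Actn1 (0.28, adjusted p = 0.00601), Lims1 (−0.37, 0.00109), Tns3 (−0.37, 0.00149) and Tgfb1i1 (−1.20, 0.00374) kept their calls. The losses that follow are from fits without pairing. Lims1 lost its call without the SN2285 library of either sort (adjusted p = 0.0513 without the GFP-positive and 0.0502 without the GFP-negative one) or the GFP-positive SN2293 library (0.0578), Tns3 without GFP-negative SN2286 (0.0546) and Tgfb1i1 without GFP-negative SN2293 (0.0605).

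Basement membrane partners passed for 12 of 14 tested members, 5 higher and 7 lower. The paired fit gave 8 lower, adding Col4a5 (−0.23, adjusted p = 0.015). Of the type IV collagen genes, 4 were higher, with Col4a2 at 1048 ± 124 CPM in the GFP-positive sort, against 477 ± 102 CPM in the GFP-negative sort (log2 fold change 1.14 with an SE of 0.16, adjusted p = 2.0e-04), beside Col4a1 (0.96), Col4a3 (2.24) and Col4a4 (2.20), whereas Col4a6 (−1.22) was lower. The nidogen genes, whose products link laminin to type IV collagen, were lower. Nid1 was at 12.5 ± 0.843 CPM in the GFP-positive sort, against 77.8 ± 16.6 CPM in the GFP-negative sort (log2 fold change −2.63 with an SE of 0.15, adjusted p = 1.4e-07). Nid2 (−4.89) differed by more, but with only 4, 5, 6 and 6 counts in the GFP-positive libraries. The collagen gene Col18a1 (−2.01) and the perlecan gene Hspg2 (−1.17) were lower too, and Egfl6 (3.44), which encodes an RGD-bearing matrix protein, was higher. Hspg2 lost its call without GFP-positive SN2286 (adjusted p = 0.0547) and without GFP-negative SN2285 (0.0535) or SN2293 (0.0508). In the paired fit with all libraries Hspg2 kept its call (−1.21, adjusted p = 1.04e-06). Of 6 other laminin receptor genes, 1 rose and 1 fell. The Lutheran receptor gene Bcam, which binds the laminin α5 chain, was at 1202, 1019, 1159 and 967 CPM in the GFP-positive sort, against 524, 367, 431 and 409.8 CPM in the GFP-negative sort (log2 fold change 1.33, adjusted p = 2.5e-06). Mcam, a receptor for the laminin α4 chain, was lower (−2.03, SE 0.25, adjusted p = 2.8e-04), as Lama4 was. The dystroglycan gene Dag1 had no call (0.10, SE 0.13, adjusted p = 0.585).

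Among integrin ligands, 3 of 20 tested were higher and 12 lower in GFP-positive cells. In the paired fit with line as a term 6 were higher, through Vcam1 (0.73), Thbs1 (0.39) and Cyr61 (0.30). The nephronectin gene Npnt was at 231 ± 23.2 CPM in the GFP-positive sort, against 78.2 ± 21.0 CPM in the GFP-negative sort (log2 fold change 1.56 with an SE of 0.19, adjusted p = 1.4e-04). The tenascin gene Tnc was at 5.27 ± 1.12 CPM in the GFP-positive sort, against 122 ± 62.3 CPM in the GFP-negative sort (log2 fold change −4.51 with an SE of 0.43, adjusted p = 1.2e-04), while Itga9 was higher. Icam1, a ligand of the leukocyte β2 integrins, was at 1409 ± 113 CPM in the GFP-positive sort, against 486 ± 33.0 CPM in the GFP-negative sort (log2 fold change 1.53 with an SE of 0.08, adjusted p = 6.9e-08). The matricellular gene Ctgf was higher as well (0.71, adjusted p = 0.043), but this call was lost under 8 of the 13 alternatives, namely library size alone, no filter and leaving out GFP-positive SN2285, SN2286 or SN2293 or GFP-negative SN2286, SN2293 or SN2294 (adjusted p = 0.0647 to 0.103 over the 8). The paired fit kept the call of Ctgf (0.73, adjusted p = 3.3e-06). The fibronectin gene Fn1 was lower (−1.26). Spp1 was lower too (−1.44, adjusted p = 0.038), but this call was lost under 6 of the 13 alternatives. In the paired fit Spp1 stayed lower (−1.37, adjusted p = 0.0448). Ltbp1 (−3.58), which holds latent TGF-beta in the matrix, was lower. The fibrillin gene Fbn1, a scaffold of elastic fibres, was lower too (−5.22, SE 0.25, adjusted p = 1.1e-07).

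**Figure D4:**
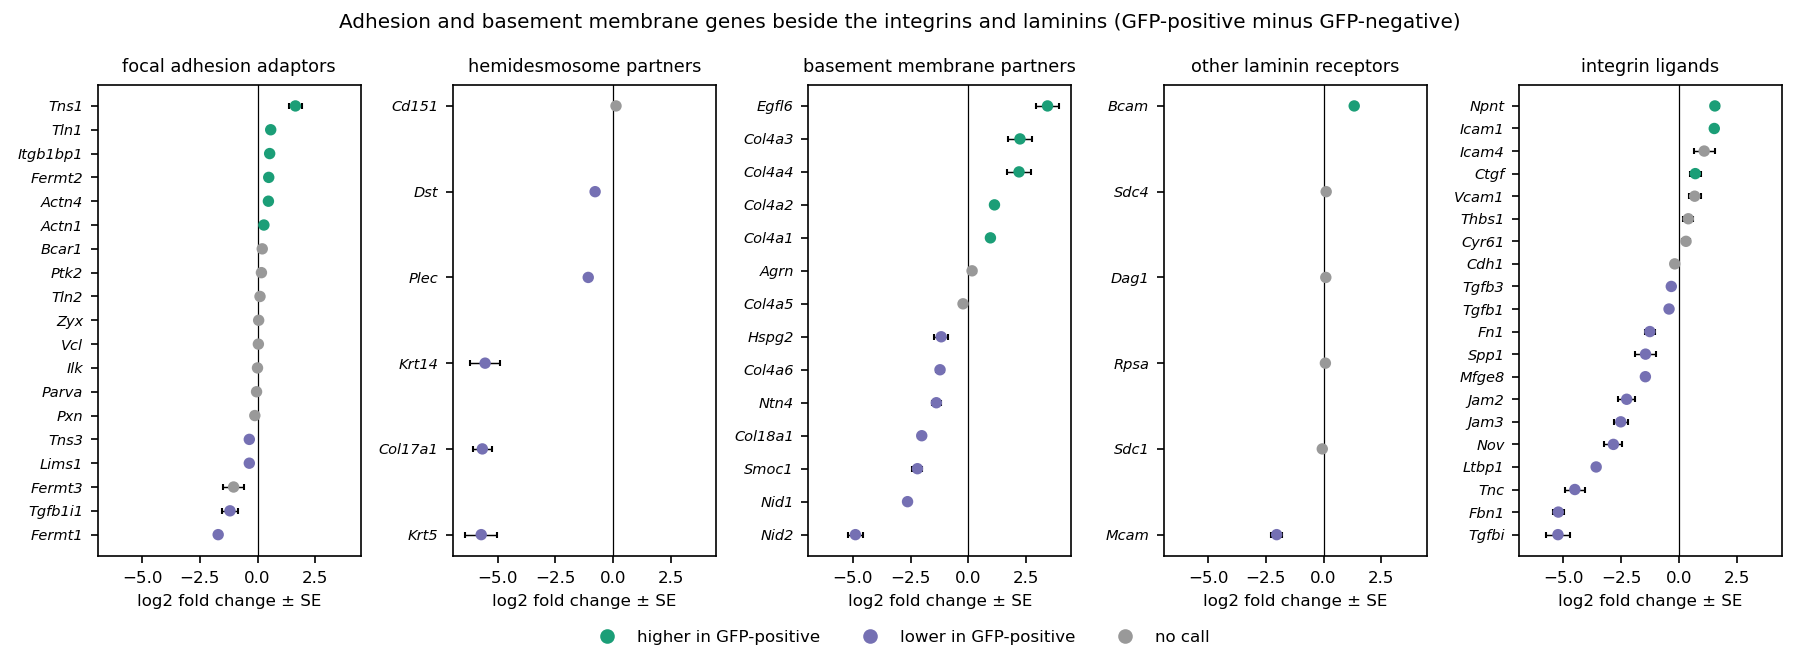
Log2 fold change (GFP-positive minus GFP-negative, x axis, ± SE) of the 65 tested genes of 5 lists of integrin and laminin partners, 4 libraries per group. Hemidesmosome partners lie left of 0 apart from Cd151 (0.13), and focal adhesion adaptors run from −1.71 (Fermt1) to 1.64 (Tns1). Basement membrane partners and integrin ligands spread on both sides, from −4.89 (Nid2) to 3.44 (Egfl6) and from −5.24 (Tgfbi) to 1.56 (Npnt).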

How the data were processed

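Polyadenylated RNA of 8 libraries (300 ng, 14 PCR cycles, per the labels) was sequenced. The deposited values are raw counts per gene symbol; per the submitters' processing notes, cutadapt 1.16, STAR 2.5.3a, featureCounts and Subread with build mm9 were used. The sources used here do not give annotation, strandedness or multi-mapping, so genes that overlap (Itga8, Itga7, Itga4 and Itgad each overlap an opposite-strand gene of the table) cannot be fully told apart. Depth limits genes of few counts, and counts of PCR products are not independent molecules.

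Counts were analysed in R 4.3.3 with edgeR 4.0.16: filterByExpr at its defaults (about 10 counts in 4 libraries, 15 in total), TMM factors, sort as the only term, robust two-sided quasi-likelihood test, Benjamini-Hochberg adjustment over all 12848 genes, called at 0.05. An SE is the log2 fold change divided by the square root of F. Members, lists and the rule for named genes (up to 4 members per role and 3 per partner list by p, and folds of 8 or more) were chosen with earlier results of these data known; members of partner lists beyond that rule are named for their role.

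The 2 libraries of a line share their organoid line. Deviations from the group means correlated within lines at r = 0.367, 0.455, 0.322 and 0.404 across genes. The paired fit (replicate block) gave 6169 calls in place of 5231, and 20 integrin and laminin genes in place of 19. Alternatives were this block, DESeq2 1.42.0, edgeR's relative log expression (RLE) factors in place of TMM, library size alone, no filter and leaving out each library. One gene is counted in the totals but not reported here.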

Additional observations from a re-analysis of the deposited data

Results flagged for a closer look

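Itgb3 in GFP-positive libraries was the only value among the 28 tested genes that stood apart from its group, of 56 groups of 4 examined, where chance flags about 1 in 20. It was 0.724 CPM in line SN2293, against 0.343 to 0.390 CPM in the other three lines, and rests on 9 counts against 4, 4 and 6. All 4 values were below the GFP-negative ones.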

How the results depend on the processing

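The count of integrin and laminin genes called was 19 to 21 under the 13 alternatives, and every one of the 19 calls kept its direction and its side of the threshold. Further calls were Itgb6 with line as a term (replicate block, 0.57), with DESeq2 (0.54) and after dropping GFP-negative SN2285 (0.69) or SN2286 (0.36), Itga3 with library size alone (−0.31) and after dropping GFP-negative SN2294 (−0.21), and Itga6 with library size alone (−0.27). Of the 9 tested genes without a call, 4 changed sign. Itgb1 was at 0.0077 with edgeR's RLE factors, 0.0074 with DESeq2 and 0.011 without the filter. It ran from −0.041 to 0.046 with a library left out. With library size alone Itga2b was at −0.094, Itgav at −0.14 and Lama5 at −0.095. With a library left out Itga2b ran from −0.10 to 0.26, Itgav from −0.025 to 0.099 and Lama5 from −0.059 to 0.18. The cause was not tested. The replicate block changed no other call among the 28 genes. Without a filter 36 of the 37 genes could be tested, and the same number, 19, passed. Depth limits Itga8, Itgb2, Itgb3, Itgb8 and Lama1, with 4 to 23 counts over the GFP-positive libraries. Among partners the paired fit also added Bcar1 (0.20). Several class shares moved with coding length, and the order of Lamb2 and Lamb3 turned in the GFP-positive libraries of lines SN2285, SN2293 and SN2294 but not of SN2286.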
